A study of Mus musculus with 3 samples.

Results

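Endothelial marker RNA was looked for in 3 single-cell libraries of sorted lymph node cells, and 74 of 4513 barcodes carried it without RNA of the B cell gene Cd79a. A barcode marks the droplet in which the RNA of, ideally, 1 cell was captured, and unique molecular identifiers (UMIs) count the captured RNA molecules. Barcodes with at least 200 genes and at most 10% mitochondrial UMIs were taken, and those with at least 1 UMI of Egfl7, Cldn5 or Lyve1 and no UMI of Cd79a were members. A further 19 barcodes had an entry gene (Egfl7, Cldn5 or Lyve1) together with Cd79a and were no members. Members with at least 1 UMI of Pecam1 or Cdh5 (30 barcodes) were separated from the other members (44 barcodes). The barcodes were thus chosen by measured UMIs of Egfl7, Cldn5, Lyve1 and Cd79a and split by those of Pecam1 and Cdh5, and the values of these 6 genes are given as a description. Against them stood the reference stroma, 2243 barcodes without a UMI of any of the 13 genes that the study used to leave out endothelial cells, leukocytes, red cells and epithelial cells.

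The cells came from C57BL/6 mice with the CXCL13-TdTomato+ genotype, which carry a Cxcl13-Cre/tdTomato transgene, so that cells with activity of Cxcl13, the gene of a follicular chemokine, are marked with the red protein TdTomato. By the sample labels, cells were sorted as live, Podoplanin+ CD31- CD45- CXCL13-TdTomato+ cells of digested lymph nodes. CD31 is the protein of Pecam1, so that this gate would leave out endothelial cells, while the study's methods give the gate as PDPN and TdTomato alone. Mice of the 2-IC group had received 2 antigen-immunocomplexes (IC), 7 days and 24 h before analysis, and gave 2 libraries. Mice of the 1-IC group had received 1 IC 24 h before and gave 1 library. The short descriptions of the 2-IC libraries name single times instead, and their titles were followed. Lymph nodes of several mice were pooled for each condition, untreated mice were not among the samples, and p-values measure the spread between these libraries, which may be technical.

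Endothelial cells line vessels. Blood and lymphatic endothelium share junction proteins such as VE-cadherin (Cdh5), claudin-5 (Cldn5) and CD31, and growth factor receptors of the VEGF and TIE families. Lymphatic endothelium is set apart by the transcription factor Prox1, the VEGF-C receptor Flt4 and the hyaluronan receptor Lyve1, and in lymph nodes it lines the sinuses through which lymph and antigen pass, while specialised blood vessels, the high endothelial venules, admit lymphocytes.

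The promoters of the entry genes show the DNA context of the rule. RefSeq promoters (GRCm38.p6, 250 bases before to 50 after the gene start) matched 2 of the 3 entry genes, Egfl7 and Cldn5. The ETS core motif AGGAAGT, bound by a transcription factor family active in endothelium, was searched on both strands (the other strand reads ACTTCCT) and is printed in capitals. 2 of the 3 Egfl7 promoters held it once, chr2:26580833-26581132 and chr2:26583615-26583914, and the promoter of Cldn5 at chr16:18776597-18776896 did not. Both Egfl7 promoters are those of a gene on the plus strand. In the first the motif is read on the other strand, and in the second on the same strand.
Egfl7, first: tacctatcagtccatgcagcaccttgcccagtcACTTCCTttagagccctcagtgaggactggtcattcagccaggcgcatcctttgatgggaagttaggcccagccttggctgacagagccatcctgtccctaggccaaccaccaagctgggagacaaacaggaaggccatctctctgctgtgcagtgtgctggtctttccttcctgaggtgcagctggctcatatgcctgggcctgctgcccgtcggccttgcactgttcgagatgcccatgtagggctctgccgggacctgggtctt
Egfl7, second: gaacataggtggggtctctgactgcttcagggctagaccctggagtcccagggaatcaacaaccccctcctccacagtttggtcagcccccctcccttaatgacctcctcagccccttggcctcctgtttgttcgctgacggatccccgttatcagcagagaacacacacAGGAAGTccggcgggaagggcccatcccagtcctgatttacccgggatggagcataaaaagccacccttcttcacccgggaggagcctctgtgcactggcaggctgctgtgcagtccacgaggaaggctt
Cldn5: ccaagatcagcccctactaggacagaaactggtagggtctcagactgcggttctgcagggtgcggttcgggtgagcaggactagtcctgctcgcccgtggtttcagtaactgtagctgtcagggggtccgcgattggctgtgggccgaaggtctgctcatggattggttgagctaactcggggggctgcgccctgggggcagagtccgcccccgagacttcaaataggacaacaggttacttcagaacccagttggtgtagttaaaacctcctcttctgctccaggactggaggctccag
Of all 32851 promoters in the table, 9.35% held the motif, as did 2 of 16 promoters of the pan-endothelial genes matched, 0 of 14 of the lymphatic endothelial genes, 3 of 9 of the blood endothelial genes and 2 of 11 of the reticular stroma genes. A match describes the sequence and is no evidence of binding.

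The libraries held 20607903, 12788101 and 3766526 UMIs in 3790, 1029 and 667 deposited barcodes, in the order 2-IC replicate 1, 2-IC replicate 2 and 1-IC replicate 1. Members were few in each. They numbered 50 of 3133 barcodes in 2-IC replicate 1 (1.60%, exact 95% binomial interval 1.19 to 2.10), 16 of 756 in 2-IC replicate 2 (2.12%, 1.21 to 3.41) and 8 of 624 in 1-IC replicate 1 (1.28%, 0.555 to 2.51). Pecam1/Cdh5-positive members numbered 24, 3 and 3, or 0.766% (0.491 to 1.14), 0.397% (0.0819 to 1.16) and 0.481% (0.0993 to 1.40) of the barcodes. The intervals overlap across libraries and cover counting error only. With 1 library of the 1-IC group there was no test between the conditions.

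Barcode sequences recurred between libraries. The 2-IC libraries shared 76 of them, 2-IC replicate 1 and the 1-IC library shared 2, and the remaining pair shared 0. In 75 of the 76 the poorer library held under 4% of the UMIs of the richer one (median 1.90%). 6 members, all in 2-IC replicate 2, had a shared sequence, 1 of them Pecam1/Cdh5-positive and 5 not. The Pecam1/Cdh5-positive one held 33184 of the 68343 UMIs of its class in that library, and 809 of its UMIs came from stromal genes, so that it weighs on every summed value of 2-IC replicate 2 given for these members.

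The 30 and the 44 members differed in how much of the entry genes they held. Among the Pecam1/Cdh5-positive members, 24 had 2 or more entry UMIs (median 7.5, highest 47), and 15 had all of Egfl7, Cldn5 and Lyve1. Among the other members, 42 had exactly 1 entry UMI, in 29 cases of Egfl7. The 6 Pecam1/Cdh5-positive members with 1 entry UMI stood just inside the rule. Just outside it stood 106 barcodes without Cd79a or an entry gene but with Pecam1 or Cdh5, 42 of which carried Ptprc, the leukocyte gene that encodes CD45, and 5 of which carried Prox1. Pecam1 is also made by leukocytes and was found in 24.1% of the 1459 barcodes with Cd79a, whereas Cdh5 was found in 1.03% of them.

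An entry UMI without Pecam1 or Cdh5 was also found in barcodes with Cd79a. Among barcodes without a UMI of Pecam1 or Cdh5, the other members made up 1.31% (0.855 to 1.91), 2.44% (1.31 to 4.14) and 1.27% (0.412 to 2.93) of those without Cd79a, in the order 2-IC replicate 1, 2-IC replicate 2 and 1-IC replicate 1. Of those with Cd79a, 9 of 814, 2 of 111 and 0 of 173 held an entry UMI, or 1.11% (0.507 to 2.09), 1.80% (0.219 to 6.36) and 0% (0 to 2.11). All barcodes with Cd79a had median depths of 5080, 8456 and 3460 UMIs. The other members were deeper, with medians of 8880.5, 23969 and 9449 UMIs against 4700.5, 14732 and 5979 in the reference stroma. The share was higher in the barcodes without Cd79a in each library, but the intervals overlap, and the difference was not tested.

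**Figure D1:**
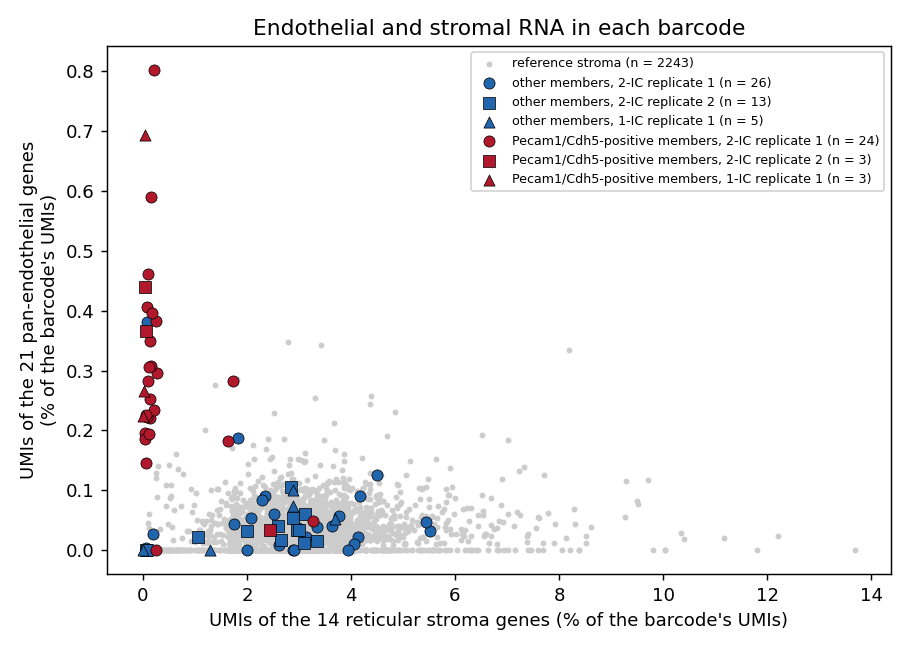
Each point is 1 barcode, placed by the percent of its UMIs from 14 reticular stroma genes (x axis) and from 21 pan-endothelial genes (y axis), coloured by class and with a marker for each library. Of the 30 Pecam1/Cdh5-positive members, 25 held more pan-endothelial than stromal UMIs, against 1 of the 44 other members, most of which lie within the grey reference stroma.

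The Pecam1/Cdh5-positive members carried endothelial RNA well beyond the genes of the rule, and little stromal RNA. The 21 pan-endothelial genes, none of them in the rule, summed to 2595, 2327 and 3066 counts per 1000000 UMIs (CPM) in 2-IC replicate 1, 2-IC replicate 2 and 1-IC replicate 1, against 435, 355 and 377 CPM in the reference stroma. The 14 reticular stroma genes summed to 3598, 12057 and 148 CPM, against 33984, 29556 and 35868 CPM. The stromal share of a barcode's UMIs had a median of 0.126% (0 to 3.27%) in the 30 Pecam1/Cdh5-positive members, 2.88% (0 to 5.53%) in the 44 other members and 3.07% in the reference stroma. Of the 30, 26 fell below the 5th percentile of the reference stroma (0.984%), as did 7 of the 44.

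Genes were tested on UMIs summed per library and class with edgeR's quasi-likelihood test, the library as a block, and a Benjamini-Hochberg adjusted p below 0.05. Sums of at least 5 barcodes left the Pecam1/Cdh5-positive members with 1 library, 2-IC replicate 1, whose spread is assumed to equal that of the other sums. In that fit 222 of 8782 genes (2.53%) were higher and 330 (3.76%) lower than in the reference stroma. A fit with sums of at least 3 barcodes, chosen after seeing the data, has a sum in each of the 3 libraries, and it called 401 of 4766 genes (8.41%) higher and 382 (8.02%) lower. The fits shared 430 called genes, which is 77.9% of the calls of the first and 54.9% of those of the second, all with the same sign. Without the barcodes shared between libraries and with sums of at least 2 barcodes, 384 of 3288 genes were higher and 427 lower. Adjusted p-values printed below are edgeR's from the fit over 3 libraries, and values of 3 libraries stand in the order 2-IC replicate 1, 2-IC replicate 2 and 1-IC replicate 1. The filter on low counts asked for 38.2 CPM in at least 3 sums of that fit. Genes under it in the reference stroma that are high in the members entered the fit through the members, so that their values are given as a description, without a p-value. With DESeq2 in place of edgeR in the first fit the calls were 170 higher and 122 lower, and with no TMM factors 327 higher and 320 lower.

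Of the pan-endothelial genes, 11 of 21 were tested over 3 libraries, and 8 were called higher and none lower (8.41% and 8.02% of all genes tested). Of these 8, Ramp2 alone lay over the filter in the reference stroma in each library, so that the count is a description. The first fit called 4 of 12 higher, Erg, Kdr, Rasip1 and S1pr1, and Tie1, Ptprb, Adgrf5, Mmrn2 and Ramp2 were not called or not tested there. Kdr, the main VEGF receptor of endothelium (chr5:75932827-75978458, minus strand), had 77, 31 and 7 UMIs (474, 454 and 346 CPM) and was found in 24 of 30 barcodes. The reference stroma had 1, 0 and 0 Kdr UMIs in 2243 barcodes. The summed values thus stood far apart in each library, while some barcodes of both classes had no Kdr UMI. Rasip1, a regulator of vascular lumen formation, was at 301, 263 and 297 CPM against 2.88, 1.24 and 1.48 CPM. S1pr1, a receptor for sphingosine-1-phosphate, was at 338, 629 and 346 CPM against 25.9, 32.6 and 28.2 CPM in the reference stroma. Tie1, an orphan receptor of the TIE family, had 14, 3 and 5 UMIs and none in the reference stroma, at least 239-fold, 83.0-fold and 167-fold higher against a floor of 3 UMIs per library. Ramp2, a receptor partner for adrenomedullin, was at 197, 132 and 297 CPM against 70.3, 46.9 and 68.2 CPM (log2 fold change 1.42 ± 0.44 SE, adjusted p = 0.0316), and did not pass in the first fit (adjusted p = 0.151). Ecscr, Eng and Clec14a did not pass the test. Ecscr was at 430, 161 and 396 CPM against 163, 128 and 153 CPM (adjusted p = 0.101), and its RNA is common in this stroma.

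Of the 12 lymphatic endothelial genes 8 were tested over 3 libraries, and 7 were called higher and none lower (8.41% and 8.02% of all genes tested). All 7 were under the filter in the reference stroma, so that this count too is a description. Prox1 (chr1:190118035-190170714, minus strand) had 89, 29 and 21 UMIs, or 547, 424 and 1039 CPM, with exact Poisson intervals of 440 to 674, 284 to 609 and 643 to 1588 CPM that cover counting error only. The reference stroma had 12, 1 and 6 Prox1 UMIs, or 1.44, 0.176 and 2.97 CPM, all far below. Prox1 was found in 23 of 30 barcodes (76.7%), in 0.713% of the reference stroma and in 0.617% of barcodes with Cd79a. With each barcode thinned to 1000 UMIs these shares were 40.0%, 0.189% and 0.357%. Itga2b, the integrin chain CD41, was at 375, 439 and 297 CPM against 11.03, 7.58 and 7.42 CPM in the reference stroma. Flt4, the receptor for VEGF-C, was at 141, 87.8 and 98.9 CPM against 2.64, 1.76 and 3.96 CPM. Mmrn1, the secreted glycoprotein multimerin-1, had 23, 4 and 5 UMIs and none in the reference stroma, at least 393-fold, 111-fold and 167-fold higher. Stab1, Clca3a1 and Tbx1 were the others called. Of the 4 genes not tested, Stab2 was found in 5 of the 30 barcodes, Ackr4 in 2, Reln in 1 and Marco in 0. Nrp2, a co-receptor for VEGF-C, was the gene tested that did not pass (adjusted p = 0.527), at 92.2, 58.5 and 297 CPM against 116, 199 and 120 CPM.

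Blood endothelial genes were fewer. Only 3 of the 12 blood endothelial genes outside the study's filter were tested over 3 libraries, with 1 higher and 1 lower (8.41% and 8.02% of all genes tested). The list of 13 genes summed to 984, 688 and 1286 CPM against 189, 250 and 198 CPM. It holds Ly6c1, which the reference stroma lacks by its definition. Gja4, a gap junction gene, did not pass (adjusted p = 0.101), at 92.2, 278 and 49.5 CPM against 49.6, 30.9 and 103 CPM. In 2-IC replicate 2 the stromal barcode with a shared sequence held 18 of its 19 UMIs. Plvap, the protein of endothelial diaphragms, was at 664, 380 and 1187 CPM against 101, 82.4 and 79.1 CPM (2.67 ± 0.34, adjusted p = 2.12e-05). Aqp1, a water channel, had 1 UMI in the 30 barcodes, against 20.9, 105 and 8.90 CPM in the reference stroma. It was called lower over 3 libraries and not in the first fit. Aqp1 did not lie over the filter in the reference stroma in each library and entered the fit through the other members, so that its call is a description. Vwf, Aplnr, Apln, Gja5 and Gpihbp1 had no UMI in them. Flt1, the VEGF decoy receptor, had 8, 0 and 1 UMIs and was too low to test over 3 libraries. By barcode, UMIs of the lymphatic list exceeded those of the blood endothelial list in 21 of the 30 barcodes and were fewer in 9.

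Of the high endothelial venule genes only Glycam1 was abundant. Glycam1, a secreted mucin known as an L-selectin ligand of high endothelial venules (chr15:103562759-103565081, minus strand), had 890, 39 and 56 UMIs, or 5473, 571 and 2770 CPM, against 5.28, 0.529 and 1.48 CPM in the reference stroma. The highest barcode held 17.8% of these UMIs, and 19 of 30 barcodes had at least 1, all of them with Prox1. Ackr1, Selp, Sele, Chst4 and Fut7 had no UMI in any of the 30 barcodes, and St6gal1 had 1.

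**Figure D2:**
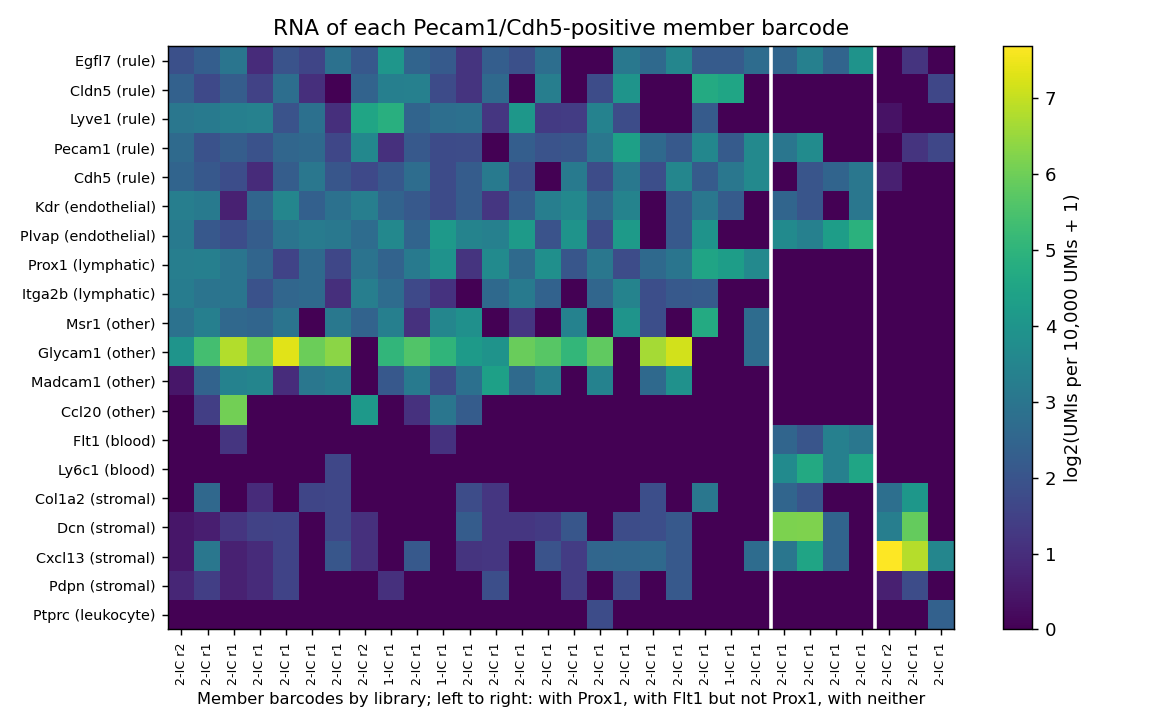
Each column is 1 of the 30 Pecam1/Cdh5-positive member barcodes, labelled by library (r for replicate), each row is 1 gene with its group in parentheses, and the colour is log2(UMIs per 10000 UMIs + 1). White lines part 23 barcodes with Prox1, 4 with Flt1 but not Prox1 and 3 with neither, and Glycam1, Itga2b and Msr1 appear in the 23 alone.

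The 30 barcodes were not of one kind, by a grouping on Prox1 and Flt1 that was made after their values were seen and is not tested. The 23 with Prox1 (18, 2 and 3 by library) held a median of 16 lymphatic list UMIs (3 to 83), and stromal genes made up at most 0.269% of their UMIs. Glycam1 was found in 19 of them, Itga2b in 19, Madcam1 in 17 and Msr1 in 17, and Ly6c1 in 1. The 4 with Flt1 but without Prox1, all in 2-IC replicate 1, held 8 to 14 blood endothelial and 0 or 1 lymphatic UMIs. Prox1 is in the lymphatic list and Flt1 in the blood endothelial list, so that the grouping itself sets part of these counts. All 4 carried Egfl7, Plvap and Ly6c1, a surface gene of many blood capillaries, and none carried Cldn5, Lyve1, Glycam1, Itga2b or Madcam1. They were shallow, with 1372 to 4236 UMIs, and in 2 of them stromal genes made up 1.64% and 1.72% of the UMIs. The remaining 3 held 0, 4 and 11 pan-endothelial UMIs. Of these, 2 had stromal shares of 2.44% and 3.27%, within the range of the reference stroma, and 1 had Ptprc and 12 macrophage and dendritic cell list UMIs. Scrublet called none of the members doublets, but it marked only 0.421% of all barcodes and is not taken as a test.

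Further genes with large rises lay outside the lists. Msr1, a scavenger receptor, had 77, 21 and 17 UMIs against 1, 1 and 0 in the reference stroma. Ccl20, a chemokine for CCR6-bearing cells, had 109, 15 and 6 UMIs against 3, 0 and 0. It came from 6 barcodes, 1 of which held 78.5% of the UMIs, so that most Pecam1/Cdh5-positive members lacked it. Sema3a and Sema3d, secreted guidance proteins, had 66, 22 and 9 and 58, 15 and 9 UMIs, against 4, 2 and 0 and 2, 1 and 0. C1ql3, a C1q-like secreted protein, had 61, 12 and 26 UMIs, Tm4sf1, a tetraspanin-like surface protein, had 70, 5 and 13, and Creg2 had 27, 8 and 8. The reference stroma held at most 2 UMIs of each of these 3 genes in a library. These genes were picked as the largest called rises and passed the filter through the members, so that they are a description.

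Junction and adhesion genes divided. Of 7 junction genes outside the rule 4 were tested and 2 rose (8.41% of all genes tested). Jam3, a junctional adhesion molecule, was at 793, 614 and 742 CPM against 69.8, 44.3 and 58.4 CPM (3.40 ± 0.36, adjusted p = 3.44e-06), and was found in 26 of 30 barcodes. F11r, its relative JAM-A, was at 326, 293 and 495 CPM against 57.8, 42.5 and 72.7 CPM (2.43 ± 0.31, adjusted p = 2.17e-05). Tjp1 and Ctnnd1 did not pass (adjusted p = 0.318 and 0.198). Of the leukocyte adhesion genes 5 of 11 were tested over 3 libraries, and Glycam1, Icam2 and Madcam1 were called higher and none lower (8.41% and 8.02% of all genes tested). Each of the 3 lay under the filter in at least 1 library of the reference stroma, so that this count is a description. Icam2 had 29, 4 and 2 UMIs against 5, 1 and 3 in far deeper sums. Madcam1, a ligand of the integrin α4β7, was at 597, 14.6 and 247 CPM against 45.0, 22.1 and 110 CPM, and in 2-IC replicate 2 it was lower than in the reference stroma, with 1 UMI. Vcam1 and Icam1, which stroma also makes, did not pass (adjusted p = 0.739 and 0.972), with Vcam1 at 744, 2180 and 445 CPM against 1068, 989 and 1021 CPM. In the Notch list the first fit called 0 of 4 genes. Over 3 libraries the ligand Dll4, under the filter in the reference stroma, was called higher, at 80.0, 146 and 49.5 CPM against 24.2, 25.4 and 29.2 CPM, and Hes1, Notch1 and Jag1 did not pass (adjusted p = 0.526, 0.165 and 0.921).

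**Figure D3:**
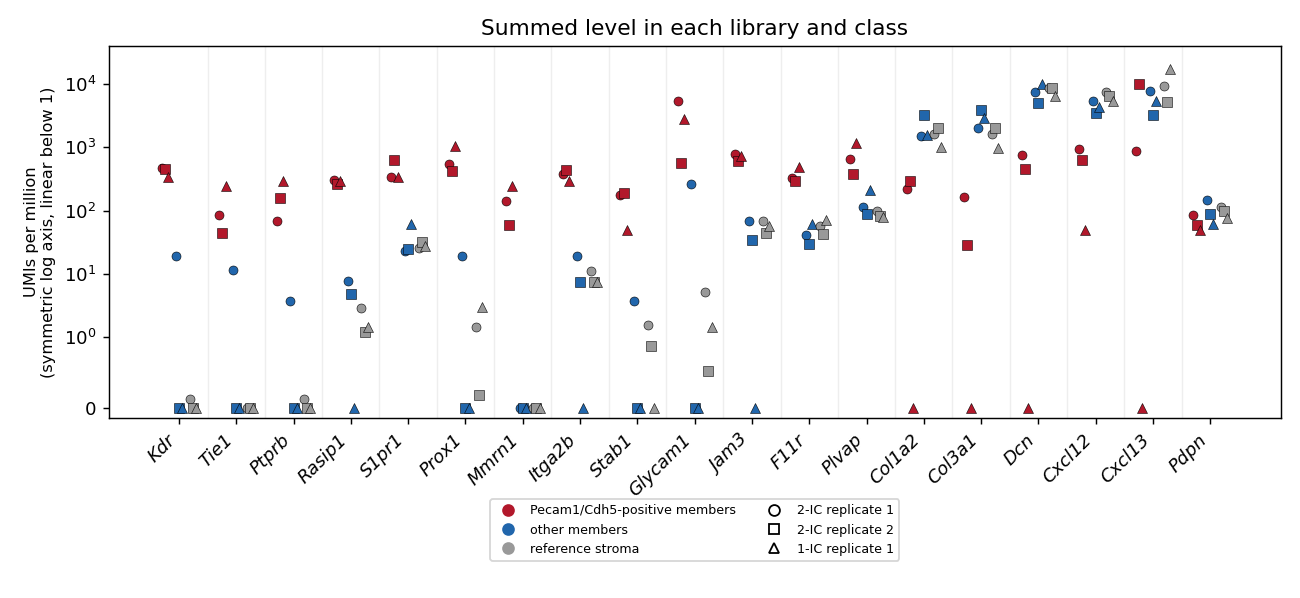
UMIs per 1000000 UMIs (CPM, symmetric log axis, linear below 1) of 19 genes, 1 point for each of the 3 libraries in each class, with sums over 24, 3 and 3, over 26, 13 and 5, and over 1526, 391 and 326 barcodes. Endothelial and lymphatic genes from Kdr to Glycam1 lie higher in Pecam1/Cdh5-positive members than in both other classes in each library, and Col1a2, Col3a1, Dcn and Cxcl12 lie lower.

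Of the 14 genes of the VEGF and angiopoietin list, 8 were tested over 3 libraries, of which 3 were called higher and 3 lower (8.41% and 8.02% of all genes). The 3 higher ones were under the filter in the reference stroma, so that their count is a description, and of the 4 genes over it 3 were lower and 0 higher. The first fit called Flt4 and Kdr higher and Pgf and Vegfc lower, of 12 tested. Over 3 libraries the receptors Kdr, Flt4 and Tie1, nearly absent from the reference stroma, were higher in the Pecam1/Cdh5-positive members, and the ligands Vegfa and Vegfc and the co-receptor Nrp1 were lower. Vegfa was at 234, 161 and 98.9 CPM against 663, 693 and 526 CPM (-2.02 ± 0.37, adjusted p = 0.000751, and 0.0596 in the first fit). Vegfc, the main growth factor of lymphatics, had 1 UMI in the 30 barcodes against 1249, 872 and 275 UMIs, or 150, 154 and 136 CPM (adjusted p = 5.93e-05). Nrp1 was at 80.0, 0 and 0 CPM against 162, 287 and 142 CPM (-2.36 ± 0.61, adjusted p = 0.0115, and 0.199 in the first fit). Vegfd and Pgf had no UMI in the 30 barcodes, and Tek, the angiopoietin receptor, had 5.

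**Figure D4:**
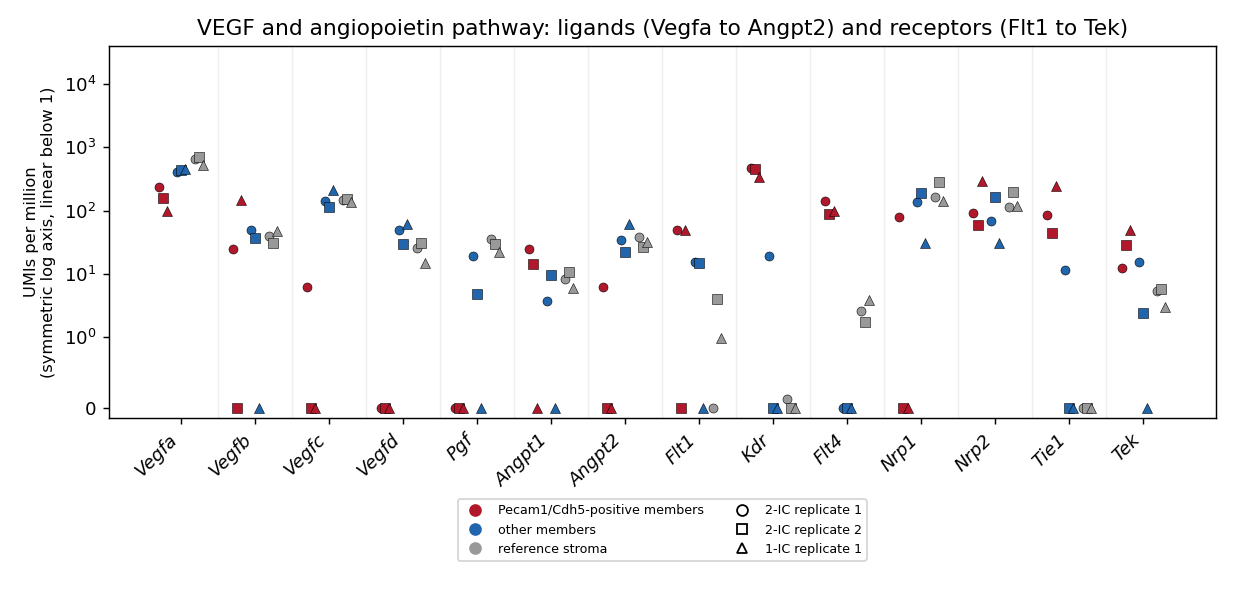
UMIs per 1000000 UMIs (CPM, symmetric log axis, linear below 1) of 7 ligands and 7 receptors or co-receptors, 1 point for each of the 3 libraries in each class. Kdr, Flt4 and Tie1 are higher in Pecam1/Cdh5-positive members and Vegfa and Vegfc are lower, with Vegfc at 1 UMI in the 30 barcodes.

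Stromal genes were low but not absent. Of the 14 reticular stroma genes, all tested, 10 were lower (8.02% of all genes) and none higher, with a median log2 fold change of -3.76, against -0.09 over all genes tested. Col1a2, a chain of type I collagen, was at 221, 293 and 0 CPM against 1629, 2005 and 1004 CPM (-3.22 ± 0.45, adjusted p = 6.55e-05). Dcn, the matrix proteoglycan decorin, was at 750, 454 and 0 CPM against 8714, 8820 and 6365 CPM (-4.40 ± 0.60, adjusted p = 4.46e-05). Cxcl12, a chemokine of reticular cells, was at 947, 629 and 49.5 CPM against 7401, 6416 and 5457 CPM (-3.77 ± 0.51, adjusted p = 4.21e-05). In 2-IC replicate 1 the level of these genes in Pecam1/Cdh5-positive members was 4.87% to 75.5% of that in the reference stroma, with a median of 9.90%, and in barcodes with Cd79a the median was 42.0%. In 2-IC replicate 2 it was 0% to 191%, with a median of 6.47%, and 56.0% in barcodes with Cd79a. Cxcl13 was the gene at 191%, above the reference stroma. In the 1-IC library the median was 0%, as 11 of the 14 genes had no UMI, and the median in barcodes with Cd79a was 41.2%. The source of the stromal RNA in these barcodes was not tested.

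Cxcl13, whose transgene marked the sorted cells, was lower in 2 of the 3 libraries. It was at 892, 9994 and 0 CPM against 9470, 5225 and 17555 CPM in the reference stroma, which is 9.42%, 191% and 0% of the stromal level. It was called lower in the first fit (-4.08, adjusted p = 1.42e-06) and did not pass over 3 libraries (adjusted p = 0.203). Of all Cxcl13 UMIs in the Pecam1/Cdh5-positive members, 82.3% came from the stromal barcode of 2-IC replicate 2 that shares its sequence with 2-IC replicate 1, which held 681, and the other 2 barcodes of that library held 1 each. The 3 members of the 1-IC library had 0 Cxcl13 UMIs in 20219. The same barcode held the 154 Cr2 UMIs of these members, so that Cr2 was lower in the first fit and at a log2 fold change of 1.44 over 3 libraries (adjusted p = 0.556). Pdpn, the podoplanin gene used in the sort, which lymphatic endothelium also makes, was at 86.1, 58.5 and 49.5 CPM against 114, 98.4 and 78.1 CPM (adjusted p = 0.257). Beside Pdpn, Ltbr, Pdgfra and Cxcl13 were the stromal genes that did not pass over 3 libraries, of which Pdgfra and Cxcl13 were called lower in the first fit.

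Outside the lists, the largest falls of the first fit were in Ccl2, Mmp3, Cyp26b1, Ccnd2, Ecm1, Ly6k, Timd4 and Cdk14, all called in both fits. Over 3 libraries they were in Mmp3, Cyp26b1, Ly6k, Sema3b, Ndrg2, Fst, Cxadr and Sgce, none of which had a UMI in the 30 barcodes, so that their order rests on fitted values. Mmp3, a matrix protease, had no UMI in the 30 barcodes against 194, 410 and 142 CPM (adjusted p = 0.000136). Cyp26b1, which breaks down retinoic acid, had none against 155, 170 and 74.7 CPM (adjusted p = 6.67e-05), and Ly6k none against 132, 78.3 and 168 CPM (adjusted p = 0.000115). Ccl2, a monocyte chemokine, had 0, 3 and 0 UMIs against 330, 643 and 114 CPM (adjusted p = 0.000143).

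Of the 8 early response and heat shock genes, all tested over 3 libraries, 6 fell (8.02% of all genes), with a median log2 fold change of -1.35, against -0.09 over all genes tested. The 8 genes stood at a median of 41.9%, 43.6% and 52.8% of their level in the reference stroma, and at 46.8%, 62.0% and 47.7% in barcodes with Cd79a. Fos was at 2977, 2341 and 3017 CPM against 6817, 5160 and 6181 CPM (-1.38 ± 0.33, adjusted p = 0.00666), and Jun at 3032, 1888 and 2077 CPM against 5777, 6448 and 5969 CPM (-1.61 ± 0.36, adjusted p = 0.00412). In the fit with 1 library of Pecam1/Cdh5-positive members 1 of the 8 was called lower (3.76% of all genes). Fosb, Egr1 and Junb fell as well, and Hspa1a, a heat shock gene, was the last of the 6, while its near-identical copy Hspa1b did not pass (adjusted p = 0.133) and was above the reference stroma in each library, at 830, 146 and 495 CPM against 293, 100 and 119 CPM. Against the other members Hspa1b was called higher in both fits.

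RNA of other cell types varied in the Pecam1/Cdh5-positive members. The 10 mural cell genes summed to 996, 863 and 396 CPM against 3091, 2870 and 2418 CPM, with 4 of 8 tested lower (8.02% of all genes) and none higher. The most abundant mural gene, Rgs5, was at 461, 366 and 346 CPM against 574, 673 and 408 CPM and did not pass (adjusted p = 0.213), and it was found in 14 of 30 barcodes. Des was lower (-3.43 ± 0.42, adjusted p = 1.74e-05), and Acta2 did not pass (adjusted p = 0.0642). Cspg4 and Itga7 were at 0 in these 30 barcodes and had at most 20 UMIs per library in the reference stroma. Among the T cell genes Trbc2 was the most abundant, with 5 UMIs, all in 1 barcode, and the list was at 49.2, 0 and 0 CPM. The macrophage and dendritic cell list was at 184, 102 and 0 CPM against 313, 97.0 and 399 CPM, with 3 of 10 genes tested and none called. The first fit tested 7 and called its most abundant gene, H2-Aa, lower (adjusted p = 0.00684, and 0.184 over 3 libraries), with Csf1r, Cd68, C1qb and C1qc at 0. Of the B cell genes Igkc was lower in the sums over 3 libraries (-1.20 ± 0.39, adjusted p = 0.0447) and did not pass in the first fit. By barcode it was lower in the 1-IC library alone. It was found in 87.5%, 100% and 0% of these members, against 74.8%, 79.5% and 15.3% of the reference stroma. Over all libraries it was in 80% against 67.0%, and after thinning in 33.3% against 23.6%. The highest barcode held 754 of 5936, 877 of 1987 and 6 of 88 Igkc UMIs of the reference stroma. Ighm did not pass (adjusted p = 0.874), and Cd22 was at 0. Of the platelet genes Pf4, under the filter in the reference stroma, was at 166, 29.3 and 98.9 CPM against 32.1, 23.5 and 34.6 CPM, while Ppbp, Gp9 and Gp1bb were at 0. The red cell genes were at 0 and the epithelial list had 5 UMIs, 3 of Epcam and 2 of Krt8.

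The other members carried stromal RNA at a level near that of the reference stroma. Their pan-endothelial list was at 466, 386 and 699 CPM against 435, 355 and 377 CPM, their lymphatic list at 134, 184 and 30.4 CPM against 138, 213 and 139 CPM, their blood endothelial list at 336, 561 and 973 CPM against 189, 250 and 198 CPM, and their stromal list at 28266, 25148 and 29452 CPM against 33984, 29556 and 35868 CPM. The blood endothelial list holds Ly6c1, which the reference stroma lacks by its definition and which was at 61.1, 12.3 and 517 CPM in the other members, so that the list is no comparison of the classes. The first fit called Aqp1 and Kdr higher, but 1 barcode held 117 of the 173 Aqp1 UMIs and 1 barcode all 5 Kdr UMIs. With sums of at least 3 barcodes no pan-endothelial, blood or lymphatic endothelial gene was called. Col1a1 was found in 95.5% of the other members and in 90.2% of the reference stroma, and with each barcode thinned to 1000 UMIs in 65.1% and 68.1%, with 1 and 129 shallower barcodes left out. In the fit with sums of at least 5 barcodes 91 of 8782 genes (1.04%) were higher and 32 (0.364%) lower than in the reference stroma. With sums of at least 3 barcodes 2 of 4766 genes (0.042%) were higher and 0 (0%) lower. Both fits held the other members of all 3 libraries, and 55 of the 123 genes called in the first were tested in both. In the second fit 237 genes had an unadjusted p below 0.05, and DESeq2 called 11. The 2 genes were Glycam1 and Tm4sf1, named after their values were seen. Both were under the filter in the reference stroma and entered through the Pecam1/Cdh5-positive members, so that no p-value is given. Tm4sf1 had 7, 1 and 0 UMIs in the other members. All 70 Glycam1 UMIs of the other members came from 1 barcode of 2-IC replicate 1, which also held 4 Prox1, 5 Cldn5, 5 Lyve1 and 13 lymphatic list UMIs among 5243, and 4 stromal ones, but no UMI of Pecam1 or Cdh5. Without other members that had Prox1 or Ptprc, edgeR called 0 genes in the fit over 3 libraries, with 151 at an unadjusted p below 0.05.

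Of the genes that the first fit called in the other members, only 22 of 91 rises had the same direction in every library, and 30 of 32 falls. These rises were led by Top2a, Stmn1, Tyms, H2-DMa and Col6a5. Top2a, a topoisomerase of dividing cells, was at 15.3, 362 and 60.8 CPM against 6.47, 6.88 and 1.98 CPM, with 147 of 153 UMIs in 2-IC replicate 2. Cr2, the complement receptor of follicular dendritic cells, Sox9, Ch25h, Pdlim3 and Hamp led the falls, and Cr2 was at 42.0, 0 and 0 CPM against 109, 101 and 179 CPM. The macrophage and dendritic cell list was at 3179, 111 and 243 CPM against 313, 97.0 and 399 CPM, with Cd52, Fcer1g and Tyrobp higher in that fit, and its most abundant gene, H2-Aa, at 1822 CPM in 2-IC replicate 1. Of the UMIs of the list, 663 and 130 lay in 2 barcodes of 2-IC replicate 1, which held 12 and 14 Ptprc UMIs. The reference stroma lacks Ptprc by its definition, so that this list too is no comparison of the classes. Without Ptprc barcodes the first fit called 66 genes higher and 35 lower.

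The Pecam1/Cdh5-positive members were also set directly against the other members. The first fit called 208 genes higher (2.37%) and 251 lower (2.86%), and over 3 libraries 377 were higher (7.91%) and 329 lower (6.9%). With DESeq2 the first fit gave 121 higher and 86 lower. The first fit called 3 of 12 pan-endothelial and 4 of 8 lymphatic genes higher, and over 3 libraries 7 of 11 and 7 of 8. None of those called over 3 libraries lay over the filter in the other members in each library, so that the counts are a description. Of the blood endothelial genes the first fit called Plvap of 7 tested higher, and over 3 libraries Gja4 and Plvap were higher and Aqp1 lower, of 3 tested. Gja4 was at 92.2, 278 and 49.5 CPM against 34.4, 7.38 and 91.2 CPM in the other members, and was thus lower in the 1-IC library. In 2-IC replicate 2, 1 barcode held 18 of the 19 Gja4 UMIs of the Pecam1/Cdh5-positive members. It was the stromal barcode that shares its sequence with 2-IC replicate 1. Gja4 did not lie over the filter in the other members in each library, so that its call is a description. Of the 173 Aqp1 UMIs of the other members, 117 came from 1 barcode. Of the 14 reticular stroma genes 12 were lower in the first fit and 10 over 3 libraries. The largest rises of the first fit were in Ccl20, Flt4, Lcn2, Stap2 and Cldn11, none of which had a UMI in the 44 other members, so that their order rests on fitted values. Over 3 libraries they were in Ccl20, Cldn11, Tnfsf10, Sh3gl3 and Stap2. Cldn11, a claudin of tight junctions, had 34, 11 and 5 UMIs, and Stap2, a signalling adaptor, 24, 7 and 6. Lcn2, a secreted lipocalin, had 16, 1 and 1 UMIs and was not tested over 3 libraries. The largest falls of the first fit were in Ecm1, Ly6k, Apod, Ccnd2 and Fbln2. Apod, Ly6k and Fbln2 had no UMI in the Pecam1/Cdh5-positive members, and the 44 other members held 41, 72 and 96. This comparison shares its Pecam1/Cdh5-positive sums with the comparison against the reference stroma, so that the one is no independent support for the other.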

How the data were processed

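Droplet libraries (10x Genomics 3′ chemistry) were made from sorted cells of pooled lymph nodes, 2 of the 2-IC and 1 of the 1-IC group. The authors deposited UMI counts per gene and barcode, made with Cell Ranger 5.0.0 on GRCm38 per the file headers. The counts were used as deposited, with barcodes of at least 200 genes and at most 10% mitochondrial UMIs, and no further filter. CPM is UMIs per 1000000 UMIs of the summed barcodes.

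Members, gene lists and tests were chosen with earlier results of these data known. UMIs were summed per library and class (at least 5 barcodes) and fitted with edgeR 4.0.16 (TMM, quasi-likelihood test, library as a block, Benjamini-Hochberg adjustment) in R 4.3.3. The 6 rule genes and the genes of the study's filter were not tested as results. The fit with at least 3 barcodes, the fit with at least 2 entry UMIs in sums of at least 2 barcodes, the leaving out of shared barcodes and the subsets by Prox1 and Ptprc were chosen after seeing the data. DESeq2 1.42.0, other filters, thinning to 1000 UMIs and leaving out each library were alternatives. Blocking by library joins classes of the same library.

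Genes were named from those that chose the members, the 4 most abundant of each list in Pecam1/Cdh5-positive members (some of which are counted only), and the called genes with the largest changes in the same direction in every library (10 rises and 8 falls against the reference stroma, 5 and 5 in the other comparisons), while other list members are named to account for the list. In simulated counts with 200 of 4772 genes changed, the fit with at least 3 barcodes called 110 genes for Pecam1/Cdh5-positive members, 106 of them changed. The simulated sums had the same spread whatever their number of barcodes, changes of a single fixed size and no gene differences between libraries. The simulation therefore does not give the share of false calls in the data, where single barcodes weigh on the sums. Scrublet (scanpy 1.11.5) called 0, 3 and 16 barcodes doublets, or 0.421%, and has not worked for the largest library, so that doublets were left in. Near-identical gene copies such as those of Ccl19, Ccl21a and Hspa1a share reads and are uncertain. Intervals are exact (Clopper-Pearson or Poisson) and cover counting error only, and fewer cells and less RNA per cell cannot be told apart in sums. Gene positions are from GENCODE on GRCm38.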

Additional observations from a re-analysis of the deposited data

Results flagged for a closer look

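Barcodes outside the rule carried endothelial RNA. Of the 1459 barcodes with Cd79a, 8 (0.548%), all in 2-IC replicate 1, held an entry gene together with Pecam1 or Cdh5, and 2 of these also held Prox1. Of the barcodes without Cd79a or an entry gene, 5 held Pecam1 or Cdh5 together with Prox1. Nrp2 in the Pecam1/Cdh5-positive members stood at 248% of its level in the reference stroma in the 1-IC library, which rests on 6 UMIs, and at 79.7% and 29.4% in 2-IC replicates 1 and 2, and the difference between the conditions was not tested.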

How the results depend on the processing

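The rises of endothelial and lymphatic genes and the falls of stromal genes rest on 30 barcodes, 24 of them in 2-IC replicate 1, and no value without that library could be had in the fit with sums of at least 5 barcodes. Fits on members with at least 2 entry UMIs could not be run with sums of at least 5 barcodes. Over 70 named genes, 1388 of 1597 alternative values kept the side of the threshold, with the same direction where both fits called the gene. Another 94 lost the call, 109 gained it and 6 reversed direction with a call in at least 1 of the fits. Where neither fit called the gene, direction was not compared. Without TMM factors the median log2 fold change of all genes against the reference stroma moved from -0.16 to 0.11.

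Genes called between Pecam1/Cdh5-positive members and reference stroma (552) numbered 389 with no replicate block (244 higher, 145 lower), 292 with DESeq2, 76 with barcodes thinned to 1000 UMIs, 77 of 367 genes tested when thinned with sums of at least 3 barcodes, 1044 with Prox1 barcodes alone in sums of at least 2, and 1097 with members of at least 2 entry UMIs in sums of at least 2. Leaving out a library gave 555 to 586, and with sums of at least 3 barcodes 466 to 924, the highest without 2-IC replicate 2. Between the other members and the reference stroma (123) the counts were 39 with no replicate block, 8 with DESeq2, 6 thinned, 27 against stroma chosen by collagen RNA, and 52 without shared barcodes (23 with sums of at least 2). They were 2 with sums of at least 3 barcodes. Separate fits of such sums gave 1 without the block, 11 with DESeq2, 2 of 367 genes tested when thinned, and 0 without Prox1 or Ptprc barcodes. With sums of at least 2 and Prox1 barcodes alone among the Pecam1/Cdh5-positive members they were 27. Leaving out a library gave 39 to 50, and 0 to 60 with sums of at least 3 barcodes. Between the member classes (459) they were 208 with no replicate block, 207 with DESeq2 and 28 thinned. Sums of at least 3 barcodes gave 706, and a separate fit of such sums after thinning called 51 of 367 genes tested. They were 963 with Prox1 barcodes alone in sums of at least 2, and 565 without shared barcodes (722 with sums of at least 2). Leaving out a library gave 437 to 448, and 440 to 655 with sums of at least 3 barcodes.

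Thinning left 32 members, 16 of them Pecam1/Cdh5-positive, of which 56.2% had Prox1, and 62.5% of the other members then had collagen RNA. With at least 2 entry UMIs there were 26 members, 24 of them Pecam1/Cdh5-positive, and 100% of the 2 others had collagen RNA. Cr2 reversed to a log2 fold change of 1.44 with sums of at least 3 barcodes, and to 2.42 without the block, 0.59 with other members without Prox1 or Ptprc, 2.15 without 2-IC replicate 1 and 2.56 without 1-IC replicate 1, all from 1 barcode. Myh11 reversed to 0.28 without 2-IC replicate 1. The causes of the other changes were not tested.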
